A study of Mus musculus with 20 samples.

Results

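The uterine transcript levels of 10 genes that carry the relaxin receptor and the nitric oxide-cGMP route of tissue relaxation were compared in a mouse model of implantation failure treated with peripheral blood mononuclear cells (PBMCs). The genes were chosen by symbol from the deposited table of 45777 genes: the relaxin receptor Rxfp1, the NO synthases Nos1, Nos2 and Nos3, the soluble guanylyl cyclase subunits Gucy1a1 and Gucy1b1, the cGMP-dependent kinase Prkg1, the phosphodiesterase Pde5a, and the natriuretic peptide receptors Npr1 and Npr3. All mice were wild-type B6D2F1 females aged 8 to 12 weeks that had mated, and uteri of 5 mice per group were collected at 18:00 on day 3.5 of pregnancy. Mice of the control group received no treatment. No vehicle injection of them is described, so RU486 and its injection cannot be told apart in comparisons with control. Below, a change with or after RU486 means IF against control. Mice of the IF (implantation failure) group received a subcutaneous injection of RU486 at 3 mg/kg at 9:00 on day 3.5. RU486 (mifepristone) is an antagonist of the progesterone and glucocorticoid receptors. The PBMC and PBMC-hCG groups received the same RU486 dose and, on day 1.5, an intrauterine injection of 50000 PBMCs per horn. These cells came from non-pregnant mice and had been cultured for 24 h without (PBMC) or with (PBMC-hCG) human chorionic gonadotropin (hCG) at 5 IU/mL. Mice injected with medium alone were not analysed here, so the cells and the injection cannot be told apart in the comparisons of either PBMC group with the IF group.

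Relaxin acts on RXFP1, a receptor coupled to Gs proteins and cyclic AMP, and in vessels also engages nitric oxide. NO made by NO synthases from arginine activates soluble guanylyl cyclase, a heterodimer of an alpha and a beta subunit, and the cGMP it makes activates the kinase PKG I, which lowers calcium and relaxes smooth muscle. Phosphodiesterase 5 degrades cGMP, NPR1 is a membrane guanylyl cyclase for atrial and B-type natriuretic peptides, and NPR3 removes these peptides. In the uterus the route is known for quiescence of the myometrium and for widening of vessels.

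Levels were read as TPM, the transcript abundance unit of the deposited table, scaled by transcript length and by the sum of each library, so that depth is unknown and genes can be compared by level. All 10 genes were above 0 in all 20 libraries and were among the 18706 genes tested. No 2 libraries were identical, and 22702 to 24097 genes were above 0 per library. Each listed marker of smooth muscle, endothelium, stroma and epithelium was above 0 in every library. Control replicate 2 stood apart: adipose markers summed to 89.2 TPM there against 0 to 3.04 TPM in the other control mice, and its median correlation with its own group was 0.963, the lowest of the 20 libraries. Comparisons with control are therefore also given without it, and without it every call of the 10 genes against control stayed past the threshold except that of Nos3 in IF. In tissue RNA, fewer cells of a type and less RNA per cell cannot be told apart.

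Of the 10 genes, 4 differed between the IF and control groups at an adjusted p under 0.05, 3 higher (Npr1, Pde5a and Nos3) and 1 lower (Gucy1a1) after RU486. Over all genes tested, 21.9% were called in that comparison, 13.4% higher and 8.53% lower. Between the PBMC-hCG and IF groups 4 were called, 3 higher (Npr3, Gucy1a1 and Gucy1b1) and 1 lower (Nos3), where 13.6% of all genes were called, 7.61% higher and 5.99% lower. None was called between the PBMC and IF groups or between the PBMC-hCG and PBMC groups, where limma called 0% and 0.0107% of all genes. At an unadjusted p under 0.05 these counts were 4 and 1 of the 10 genes, beside 6.79% and 16.2% of all genes. Against control, 2 genes were called in the PBMC group (19.5% of all genes) and 4 in the PBMC-hCG group, all higher (31.8% of all genes, 20.2% higher and 11.6% lower). All changes were under 2-fold. Under the criterion of a fold change of at least 2 with an unadjusted p under 0.05, none of the 10 passed in any comparison, where 4.03% (IF versus control), 0.438% (PBMC versus IF), 2.31% (PBMC-hCG versus IF), 0.893% (PBMC-hCG versus PBMC), 3.34% (PBMC versus control) and 4.74% (PBMC-hCG versus control) of all genes did. The comparisons share groups of mice: IF enters IF versus control with one sign and PBMC-hCG versus IF with the other, so opposite changes in them are not independent of each other.

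**Figure D1:**
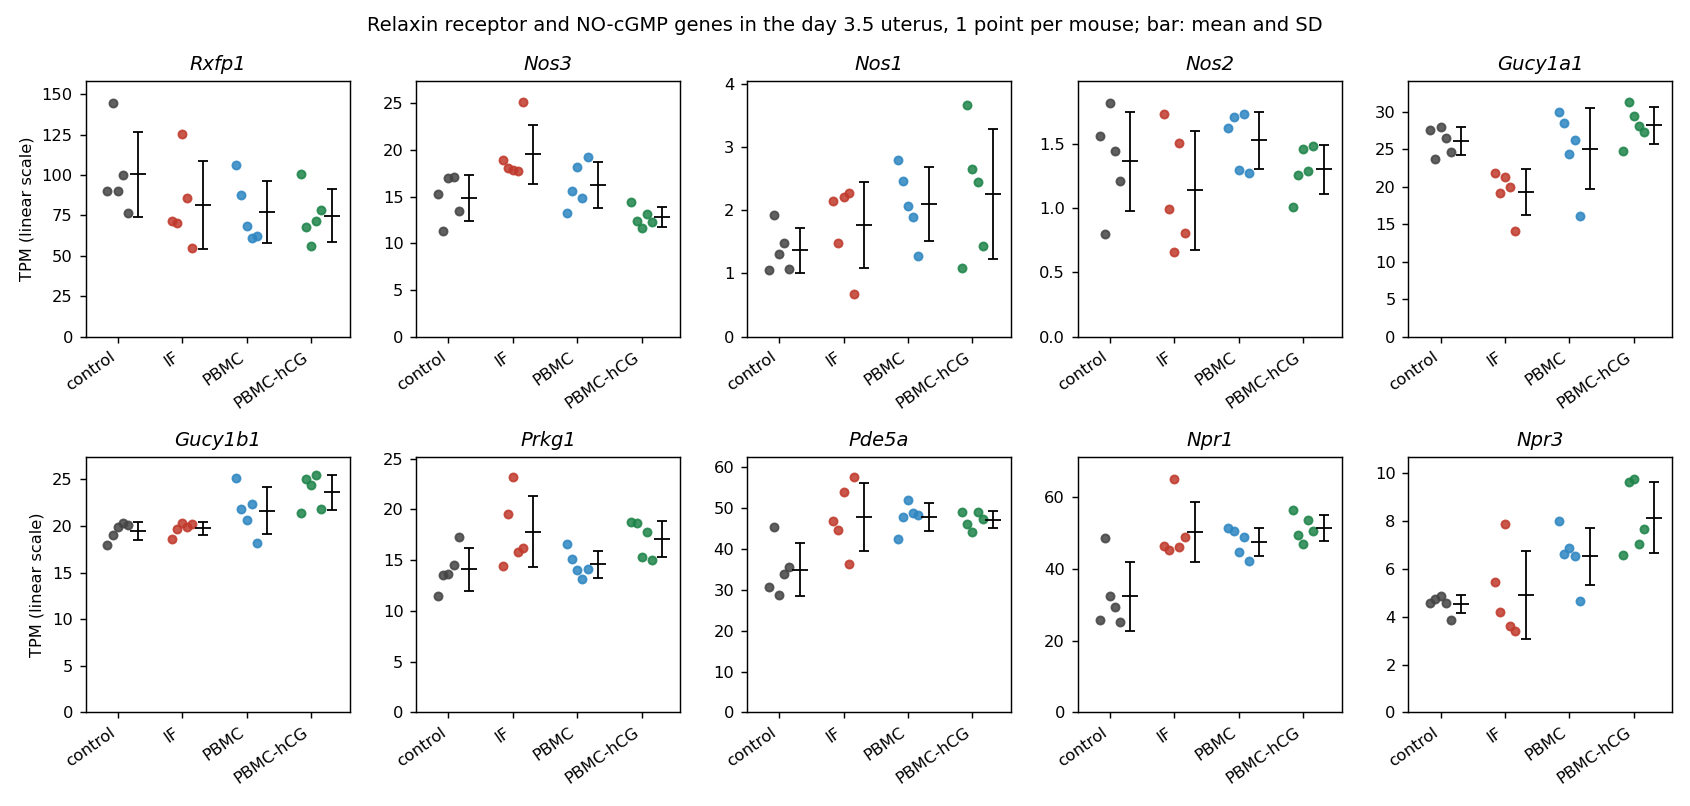
Level in TPM (linear axes from 0) of each of the 10 genes by group, with 1 point per mouse and a bar for the mean and SD of 5 mice. The 5 IF mice lie above the 5 control mice for Nos3 and below them for Gucy1a1, and the 5 PBMC-hCG mice lie above the 5 IF mice for Gucy1a1 and Gucy1b1.

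Rxfp1 had the highest level of the 10 genes, at the 90.7th percentile of the genes tested, and no comparison called it. Its level was 89.9, 145, 90.3, 100.3 and 76.8 TPM in the control mice, 71.4, 70.5, 126, 85.5 and 54.6 TPM in the IF mice, 106, 87.4, 68.8, 61.0 and 62.6 TPM in the PBMC mice, and 100.4, 67.7, 56.1, 71.5 and 78.5 TPM in the PBMC-hCG mice. The groups overlapped, with control replicate 2 the highest of all mice. The means were 100.4 ± 26.1 TPM (SD, n = 5) in control, 81.5 ± 27.0 TPM in IF, 77.2 ± 19.3 TPM in PBMC and 74.8 ± 16.4 TPM in PBMC-hCG, and neighbours in that order differed by less than the SD within groups. The fitted difference from control was -0.32 on the log2 scale for IF (SE 0.21, adjusted p = 0.311) and -0.42 for PBMC-hCG (adjusted p = 0.147), the latter with a 95% interval from 0.55- to 1.02-fold. Without control replicate 2 they were -0.18 and -0.28.

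Among the NO synthases, Nos3, the endothelial enzyme, was the most abundant, with 78.3% (PBMC-hCG) to 86.8% (IF) of the summed TPM of the 3 genes on average. Nos3 was at 15.3, 11.3, 17.0, 17.1 and 13.4 TPM in the control mice, 19.0, 18.0, 17.9, 17.7 and 25.2 TPM in the IF mice, 13.2, 15.6, 18.2, 14.9 and 19.2 TPM in the PBMC mice, and 14.5, 12.4, 11.7, 13.1 and 12.3 TPM in the PBMC-hCG mice. All IF mice thus lay above all control mice and all PBMC-hCG mice, while the PBMC group spanned the gap. Nos3 rose 1.32-fold with RU486 (95% interval 1.10 to 1.59, log2 difference 0.40, SE 0.13, adjusted p = 0.0293). This call was lost without control replicate 2 (0.31, adjusted p = 0.0657), without control replicate 5 or without IF replicate 5, the mouse at 25.2 TPM, and also under median-of-ratios scaling (adjusted p = 0.0519) and in a fit of these 2 groups alone (adjusted p = 0.0825). In the PBMC-hCG group Nos3 was 0.66-fold its IF level (interval 0.55 to 0.79, log2 difference -0.60, SE 0.13, adjusted p = 0.0258). Between PBMC and IF the log2 difference was -0.27 (adjusted p = 0.733), and between PBMC-hCG and PBMC it was -0.33 (adjusted p = 0.283).

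The 8 endothelial markers were read beside Nos3. Their summed TPM was 505 to 641 in the control mice, 733 to 801 in the IF mice, 723 to 839 in the PBMC mice and 787 to 882 in the PBMC-hCG mice. All 8 were called higher in IF than in control, and 1 was called higher in PBMC-hCG than in IF, where 13.4% and 7.61% of all genes were. As a percentage of that sum, Nos3 was 2.53 ± 0.191 (SD, n = 5) in the control group, 2.56 ± 0.495 in the IF group, 2.07 ± 0.401 in the PBMC group and 1.52 ± 0.128 in the PBMC-hCG group. The PBMC-hCG mice, at 1.33% to 1.67%, lay below every control mouse (lowest 2.24%) and every IF mouse (lowest 2.24%). These shares are a description without a test, and the part of endothelial RNA in the Nos3 differences was not tested. The 3′ end of Nos3 (chr5:24364816-24384474, + strand) overlaps Atg9b on the opposite strand, which had a mean of 3.58 TPM. Whether the authors' quantification used strand is not given in the sources used here.

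Nos1, the neuronal enzyme, and Nos2, the inducible enzyme of activated macrophages, were low. Nos1 ranged from 0.682 to 3.66 TPM over the 20 mice, with group means of 1.37 ± 0.356 TPM (SD, n = 5) in control, 1.76 ± 0.680 in IF, 2.10 ± 0.579 in PBMC and 2.26 ± 1.03 in PBMC-hCG. The groups overlapped, and the PBMC-hCG versus control log2 difference of 0.60 had an adjusted p of 0.179. Nos2 ranged from 0.656 to 1.82 TPM, its group means lay between 1.14 ± 0.462 TPM (IF) and 1.53 ± 0.223 TPM (PBMC), and its smallest adjusted p over the comparisons was 0.435. Markers of macrophages and myeloid cells summed to 622 to 829.2 TPM in control, 619 to 858 TPM in IF, 701 to 769 TPM in PBMC and 647 to 962 TPM in PBMC-hCG, and those of lymphocytes to 23.4 to 31.6, 23.7 to 43.3, 21.4 to 36.3 and 32.7 to 41.4 TPM in the same order. For PBMC-hCG versus IF the 95% interval of Nos2 was 0.85- to 1.66-fold, so that changes of that size were not resolved with 5 mice per group.

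Both subunits of soluble guanylyl cyclase were called in PBMC-hCG versus IF. Gucy1a1, which encodes the alpha 1 subunit, was at 27.5, 23.6, 27.9, 26.5 and 24.6 TPM in the control mice, 21.9, 19.1, 21.3, 19.9 and 14.1 TPM in the IF mice, 29.9, 28.5, 24.4, 26.2 and 16.1 TPM in the PBMC mice, and 24.7, 31.3, 29.4, 28.1 and 27.3 TPM in the PBMC-hCG mice. Every IF mouse was below every control mouse and every PBMC-hCG mouse, and the PBMC group split, with 4 mice above the IF range and replicate 5 inside it. Gucy1a1 fell with RU486 to 0.73-fold of control (interval 0.60 to 0.90, log2 difference -0.45, SE 0.14, adjusted p = 0.0275). That call was lost without control replicate 1, 3 or 4 or IF replicate 5, with log2 differences from -0.50 to -0.34 over all mice left out in turn. Gucy1a1 was 1.47-fold higher in PBMC-hCG than in IF (interval 1.20 to 1.81, log2 difference 0.56, SE 0.14, adjusted p = 0.0287). Its PBMC-hCG mean of 28.2 ± 2.43 TPM and its control mean of 26.0 ± 1.87 TPM differed by 0.11 on the log2 scale (adjusted p = 0.578).

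Gucy1b1, the beta 1 subunit that binds the heme group, was at 18.0, 19.0, 19.8, 20.3 and 20.2 TPM in the control mice and 18.6, 19.7, 20.3, 19.9 and 20.2 TPM in the IF mice. The groups lay on top of each other, with a log2 difference of 0.02 (SE 0.08, adjusted p = 0.880, interval 0.91- to 1.13-fold). The PBMC mice had 25.2, 21.8, 20.7, 22.4 and 18.2 TPM and the PBMC-hCG mice 21.4, 25.0, 24.4, 25.5 and 21.8 TPM, so that all PBMC-hCG mice exceeded all IF and all control mice. Gucy1b1 rose 1.19-fold over IF (interval 1.07 to 1.33, adjusted p = 0.0387) and 1.21-fold over control (interval 1.09 to 1.35, adjusted p = 0.00931) in the PBMC-hCG group. The first of these calls was lost with median-of-ratios scaling (adjusted p = 0.0512) and with no filter on low genes (adjusted p = 0.0564). Within a mouse, the ratio of Gucy1a1 to Gucy1b1 TPM was 1.34 ± 0.129 (SD, n = 5) in control, 0.978 ± 0.175 in IF, 1.15 ± 0.155 in PBMC and 1.19 ± 0.0623 in PBMC-hCG. The IF mice, at 0.697 to 1.17, lay below the control mice at 1.22 to 1.53.

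The subunit genes are neighbours. On mm10 (RefSeq GRCm38.p6), Gucy1b1 lies at chr3:82032004-82074711 and Gucy1a1 at chr3:82092427-82145946, both on the - strand, 17.7 kb apart with 0 annotated genes between them. Of the 10 genes 5 lie on chromosome 3, which holds 4.88% of the tested genes with a position. Their promoter windows (250 bases before to 50 after an annotated start site, 300 in all, - strand) are shown because, of these neighbours for subunits of 1 enzyme, Gucy1a1 was called in IF versus control and Gucy1b1 was not, a difference that was not itself tested. Capitals mark motif matches on either strand.
Gucy1b1 (chr3:82074662-82074961): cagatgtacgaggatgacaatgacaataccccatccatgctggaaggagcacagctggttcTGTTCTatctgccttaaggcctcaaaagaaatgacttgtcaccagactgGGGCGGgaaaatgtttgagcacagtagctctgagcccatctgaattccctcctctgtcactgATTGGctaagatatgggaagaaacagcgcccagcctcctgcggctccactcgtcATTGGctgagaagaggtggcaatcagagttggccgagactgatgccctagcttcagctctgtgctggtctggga
Gucy1a1 (chr3:82145601-82145900): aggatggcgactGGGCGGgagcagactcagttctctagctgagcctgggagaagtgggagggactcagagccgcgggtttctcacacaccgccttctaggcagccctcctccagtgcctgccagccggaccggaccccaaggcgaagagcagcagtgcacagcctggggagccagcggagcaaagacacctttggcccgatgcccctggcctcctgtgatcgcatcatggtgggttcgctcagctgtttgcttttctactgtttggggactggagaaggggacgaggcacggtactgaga
The motifs searched were the hexamer TGTTCT of progesterone and glucocorticoid receptor elements, the estrogen response element, the cAMP response element TGACGTCA, the GC box GGGCGG, the CCAAT box and the TATA box TATAAA. In the Gucy1b1 window there was a TGTTCT at -189 from the start site, a GC box at -140 and CCAAT boxes at -78 and -24, and in the Gucy1a1 window shown a GC box at -238. A second annotated Gucy1a1 window (chr3:82145024-82145323) held no match. Both Gucy1a1 windows lie inside the annotated span of the gene, so their start sites are not its outermost 5′ end. Over all 32851 windows of RefSeq genes, 19.0% held the hexamer, 35.7% a GC box, 37.4% a CCAAT box, 13.6% a TATA box, 1.79% a cAMP response element and 0.07% an estrogen response element. A match describes letters only. Windows were given for 7 of the 10 genes, without Rxfp1, Nos2 and Nos3.

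Prkg1 encodes PKG I, the kinase through which cGMP relaxes smooth muscle. It was at 11.5, 13.6, 13.6, 14.5 and 17.2 TPM in the control mice, 14.4, 19.5, 23.2, 15.8 and 16.2 TPM in the IF mice, 16.6, 15.1, 14.0, 13.2 and 14.1 TPM in the PBMC mice, and 18.7, 18.6, 15.3, 17.7 and 15.0 TPM in the PBMC-hCG mice. The groups overlapped in every comparison. The IF versus control log2 difference was 0.33 (SE 0.12, adjusted p = 0.0642), and the values for PBMC-hCG versus control and PBMC versus IF were 0.28 (adjusted p = 0.0871) and -0.27 (adjusted p = 0.724). None passed the threshold with all mice included. With each mouse left out in turn, the IF versus control difference lay between 0.23 and 0.40. It passed in 2 of 10 fits (lowest adjusted p = 0.0266). The PBMC-hCG versus control difference passed in 1 of 10 fits (adjusted p = 0.0399). Prkg1 spans chr19:30564487-31765268 (- strand), and Cstf2t, with a mean of 28.8 TPM, lies inside that span on the opposite strand. The 8 smooth muscle markers summed to 6250 to 11531 TPM in control, 6298 to 7765 TPM in IF, 6107 to 7514 TPM in PBMC and 5072 to 6397 TPM in PBMC-hCG, with 5 of the 8 called lower in PBMC-hCG than in control (11.6% of all genes). Their part in the levels of Prkg1 and Rxfp1 was not tested.

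Pde5a, the phosphodiesterase that ends the cGMP signal, was higher than control in all 3 groups given RU486. It was at 30.7, 45.4, 28.8, 33.8 and 35.7 TPM in the control mice, 46.9, 44.7, 54.0, 36.3 and 57.5 TPM in the IF mice, 42.5, 47.9, 51.9, 48.9 and 48.4 TPM in the PBMC mice, and 49.0, 46.1, 44.2, 48.9 and 47.3 TPM in the PBMC-hCG mice. Control replicate 2 lay above IF replicates 2 and 4, PBMC replicate 1 and PBMC-hCG replicate 3, and the other control mice lay below every treated mouse. Pde5a rose 1.37-fold in IF (interval 1.16 to 1.62, log2 difference 0.46, SE 0.12, adjusted p = 0.00792), 1.39-fold in PBMC (adjusted p = 0.00689) and 1.37-fold in PBMC-hCG (adjusted p = 0.00630). Without control replicate 2 the differences were 0.56, 0.57 and 0.55 on the log2 scale, and in a fit of IF and control alone the adjusted p was 0.0651. PBMC-hCG and IF differed by -0.01 (interval 0.84- to 1.18-fold, adjusted p = 0.978). The SD was 8.31 TPM in IF, 3.40 TPM in PBMC and 2.04 TPM in PBMC-hCG, a difference in spread that was not tested.

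Both natriuretic peptide receptors were called higher in PBMC-hCG than in control. Npr1 was at 25.8, 48.7, 32.5, 29.4 and 25.4 TPM in the control mice, 46.6, 45.3, 65.2, 46.3 and 48.9 TPM in the IF mice, 51.3, 50.6, 44.7, 48.9 and 42.3 TPM in the PBMC mice, and 56.4, 49.5, 47.1, 53.8 and 50.6 TPM in the PBMC-hCG mice. All 15 treated mice exceeded the control mice other than replicate 2, which lay inside the treated range. Npr1 had the largest change of the 10 genes with RU486, a 1.59-fold rise (interval 1.30 to 1.95, log2 difference 0.67, SE 0.14, adjusted p = 0.00201). It was 1.51-fold above control in PBMC (adjusted p = 0.00527) and 1.63-fold in PBMC-hCG (adjusted p = 0.000963). Leaving out each mouse in turn kept the IF versus control difference between 0.57 and 0.83, the upper value without control replicate 2, and kept the call. Differences between the treated groups lay from -0.07 to 0.11 on the log2 scale, with adjusted p values of 0.674 and more. The endothelial marker sum, given above beside Nos3, was higher in each RU486 group than in control. Of 7 epithelial markers 5 were called higher and 1 lower (Foxa2) in IF, where 13.4% and 8.53% of all genes were. Over the 20 mice the log2 level of Npr1 had r = 0.68 with the endothelial sum (-0.12 within groups) and 0.82 with the epithelial sum (0.59 within groups), values from libraries that share 1 scaling. The epithelial value within groups was not the largest. Within groups r was 0.62 with myeloid cells, 0.62 with adipose tissue and 0.56 with lymphocytes. It was 0.28 with mesothelium, 0.18 with ovary and oviduct, -0.41 with smooth muscle, -0.46 with pericytes and -0.72 with stroma. The part of any of these in the Npr1 rise was not tested.

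Npr3, the clearance receptor, was at 4.59, 4.73, 4.87, 4.57 and 3.87 TPM in the control mice, 5.46, 4.19, 7.85, 3.62 and 3.41 TPM in the IF mice, 7.99, 6.60, 6.85, 6.52 and 4.67 TPM in the PBMC mice, and 6.56, 9.64, 9.74, 7.02 and 7.68 TPM in the PBMC-hCG mice. The IF and control values overlapped (log2 difference 0.05, SE 0.19, adjusted p = 0.893), with IF replicate 3 well above its group. All PBMC-hCG mice lay above all control mice, and 4 of 5 PBMC mice did so too. Npr3 rose 1.70-fold in PBMC-hCG over IF (interval 1.28 to 2.25, log2 difference 0.77, SE 0.19, adjusted p = 0.0290) and 1.76-fold over control (interval 1.33 to 2.33, adjusted p = 0.00375). The log2 difference of PBMC from control was 0.50 (adjusted p = 0.0767, and 0.0448 in a fit of these groups alone), and of PBMC from IF 0.45 (adjusted p = 0.716). The ratio of Npr1 to Npr3 TPM within a mouse was 7.12 ± 1.83 (SD, n = 5) in control, 10.9 ± 2.62 in IF, 7.44 ± 1.07 in PBMC and 6.56 ± 1.61 in PBMC-hCG. It lay at 8.31 to 14.3 in IF and 4.83 to 8.60 in PBMC-hCG, so that these groups overlapped at their edges.

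The promoter windows of Npr1 (- strand), Pde5a (+ strand) and Npr3 (- strand) are shown because Npr1 and Pde5a were the genes called in all 3 groups given RU486, whereas Npr3 was called in the PBMC-hCG group. Capitals again mark motif matches.
Npr1 (chr3:90465817-90466116): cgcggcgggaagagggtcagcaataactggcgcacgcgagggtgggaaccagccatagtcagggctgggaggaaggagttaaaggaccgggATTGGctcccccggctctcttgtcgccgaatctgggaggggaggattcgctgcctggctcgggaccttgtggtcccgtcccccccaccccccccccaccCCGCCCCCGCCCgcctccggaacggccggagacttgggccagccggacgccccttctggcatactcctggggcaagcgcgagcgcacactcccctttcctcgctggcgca
Pde5a (chr3:122728908-122729207): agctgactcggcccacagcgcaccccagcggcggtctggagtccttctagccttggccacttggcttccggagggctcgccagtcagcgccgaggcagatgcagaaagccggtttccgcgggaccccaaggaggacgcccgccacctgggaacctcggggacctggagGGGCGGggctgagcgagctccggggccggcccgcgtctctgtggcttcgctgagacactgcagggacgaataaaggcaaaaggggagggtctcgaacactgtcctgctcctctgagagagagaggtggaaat
Npr3 (chr15:11907322-11907621): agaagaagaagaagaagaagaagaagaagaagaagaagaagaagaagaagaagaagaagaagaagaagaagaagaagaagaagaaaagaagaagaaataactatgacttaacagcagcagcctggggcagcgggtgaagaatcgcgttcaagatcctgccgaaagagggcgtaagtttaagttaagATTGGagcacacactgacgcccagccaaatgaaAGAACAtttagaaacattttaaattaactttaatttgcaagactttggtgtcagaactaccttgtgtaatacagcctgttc
The Npr1 window held GC boxes at -60 and -54 and a CCAAT box at -159, and the Pde5a window a GC box at -82. The Npr3 window held the hexamer as AGAACA at -31 and a CCAAT box at -64. That window lies inside the annotated span of Npr3 (chr15:11839896-11907837), so its start site is not the outermost 5′ end. The Npr1 window reaches past the annotated span of Npr1 (chr3:90450591-90465928), but its start site also lies inside that span. GC content was 69.7% and 66.3% for Npr1 and Pde5a and 39.0% for Npr3, with a median of 52.7% over all windows and 52.3% and 62.3% for Gucy1b1 and Gucy1a1. The estrogen response element, the cAMP response element and the TATA box were not matched in any of the 5 windows.

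**Figure D2:**
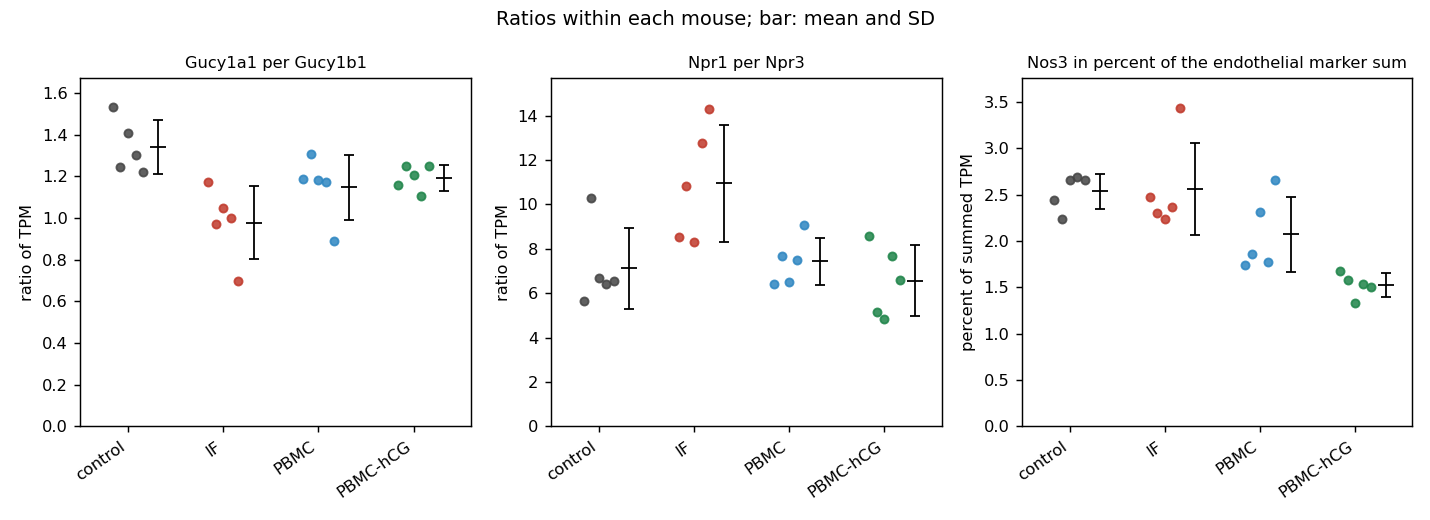
Ratios of TPM within each mouse on linear axes from 0, with 1 point per mouse and a bar for the mean and SD of 5 mice: Gucy1a1 to Gucy1b1, Npr1 to Npr3, and Nos3 in percent of the summed TPM of 8 endothelial markers. The Gucy1a1 to Gucy1b1 ratio is lowest in IF (mean 0.978), the Npr1 to Npr3 ratio highest in IF (mean 10.9), and the Nos3 share lowest in PBMC-hCG (mean 1.52%).

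The calls of PBMC-hCG versus IF rested on how many genes passed in the whole table. Leaving out any 1 of 7 mice (numbers 2, 4 and 5 of IF, and 2 to 5 of PBMC-hCG) left 0 to 34 genes called in all and none of the 4, whereas 3 or 4 of the 10 genes were called without mouse 1 or 3 of IF or mouse 1 of PBMC-hCG. The fitted differences moved less. Over the 10 fits Nos3 lay between -0.64 and -0.51, Gucy1a1 between 0.45 and 0.61, Gucy1b1 between 0.23 and 0.29, and Npr3 between 0.66 and 0.95 on the log2 scale. The highest adjusted p values were 0.0919, 0.0995, 0.105 and 0.0999. The number of the 10 genes whose 5 values did not overlap with those of the other group was 2 in IF versus control, 3 in PBMC-hCG versus IF and 2 in PBMC-hCG versus control, where 12.8%, 7.24% and 18.3% of all tested genes did not overlap. The median log2 difference of the 10 genes was 0.16 in IF versus control and 0.14 in PBMC-hCG versus IF, against 0.02 and 0.05 for all genes tested.

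**Figure D3:**
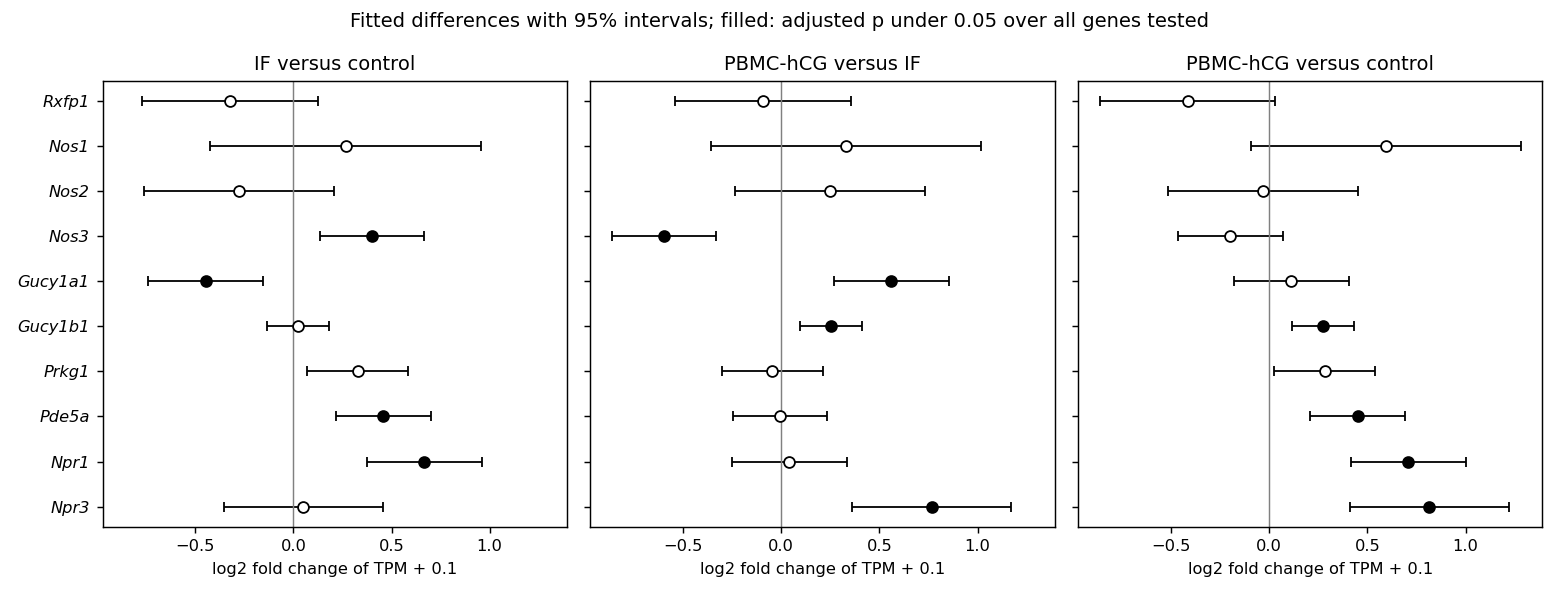
Fitted log2 fold changes of TPM + 0.1 with 95% intervals for the 10 genes in IF versus control, PBMC-hCG versus IF and PBMC-hCG versus control, with filled points for an adjusted p under 0.05 over all genes tested. Nos3 (0.40 and -0.60) and Gucy1a1 (-0.45 and 0.56) are filled on opposite sides of 0 in the first and second panels, which share the IF mice, and Npr1 and Pde5a are filled on the right in the panels against control.

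Across the 20 mice, Npr1 had the largest share of its log2 variation between groups (65.3%), followed by Npr3 (58.9%), Nos3 (58.3%), Pde5a (57.7%), Gucy1b1 (54.8%) and Gucy1a1 (50.4%). The shares of Rxfp1 (20.4%), Nos1 (19.9%) and Nos2 (19.7%) were the smallest. Correlations of log2 levels between these genes describe the same 20 libraries and share their scaling to 1 sum. The highest was between Pde5a and Npr1 (r = 0.81, and 0.54 after the group means were removed), and the lowest between Nos3 and Gucy1a1 (r = -0.77, and -0.53 within groups). Rxfp1 and Npr1 had r = 0.04 over all mice and 0.75 within groups.

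Among 15771 genes with a mean of at least 1 TPM, those most like Gucy1a1 over the 20 mice were Islr (r = 0.97, 0.95 within groups), Osgepl1 (0.96) and Cdk5 (0.96). Npr3 was most like Akap12 (0.95), Sptbn1 (0.94) and Siae (0.94). For Pde5a they were Bach2 (0.92), Ythdc1 (0.91) and Aldh1a3 (0.91), and for Nos3 Arf2 (0.91), Jag2 (0.90) and Prss22 (0.90). The leading gene was Sqstm1 (0.96) for Npr1, Fbxl7 (0.89) for Gucy1b1, Rtl3 (0.87) for Nos2, Ptpru (0.87) for Rxfp1, Mtmr1 (0.87) for Prkg1 and Zfp93 (0.86) for Nos1.

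Around the soluble cyclase, the effectors and phosphodiesterases of cGMP were measured with 20 genes tested of 23 listed. In IF versus control 7 were higher and 4 lower, where 13.4% and 8.53% of all genes were (median log2 difference 0.11, against 0.02 over all genes). Rgs2, which encodes a regulator of G protein signalling that PKG I phosphorylates and that dampens contraction through Gq, fell from 453, 470.5, 492, 482 and 501 TPM in the control mice to 91.4, 91.8, 95.5, 79.5 and 102 TPM in the IF mice (log2 difference -2.38, SE 0.10, adjusted p = 2.97e-11). It lay at 81.1 to 98.9 TPM in PBMC and 79.1 to 127 TPM in PBMC-hCG, so the control group stood apart from all others. Mrvi1, the PKG I substrate that holds back calcium release, rose from 54.8 to 77.9 TPM in control to 117 to 160 TPM in IF (log2 difference 1.14, adjusted p = 1.61e-06). Pde1a, a calcium- and calmodulin-dependent phosphodiesterase, fell by 1.40 on the log2 scale (adjusted p = 1.56e-05), Prkg2, the other cGMP-dependent kinase, fell by 1.75 (adjusted p = 0.000257), and Pde10a rose by 1.20 (adjusted p = 0.000990). In PBMC-hCG versus IF 1 gene of the 20 was higher and none lower, where 7.61% and 5.99% of all genes were. It was Pde2a, the cGMP-stimulated phosphodiesterase, with a log2 difference of 0.36 (adjusted p = 0.0479, lost under 11 alternatives), and it is named after its values were seen.

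Of the other cyclases and the natriuretic peptides and their processing enzymes, 8 of 14 genes were tested, and 4 were higher and 2 lower in IF than in control, beside 13.4% and 8.53% of all genes (median log2 difference 0.25, against 0.02). Nppc, which encodes C-type natriuretic peptide, a ligand of NPR2 that NPR3 removes, was at 2.18, 0.691, 0.927, 0.673 and 4.39 TPM in the control mice, 21.3, 37.9, 15.5, 32.9 and 44.9 TPM in the IF mice, 7.16, 10.2, 14.5, 7.47 and 34.6 TPM in the PBMC mice, and 11.9, 3.38, 2.65, 4.86 and 3.05 TPM in the PBMC-hCG mice. The IF mice overlapped neither the control nor the PBMC-hCG mice. Nppc rose by 4.30 on the log2 scale with RU486 (SE 0.53, adjusted p = 1.30e-05), and its PBMC-hCG level differed from IF by -2.67 on the log2 scale (SE 0.53, adjusted p = 0.0258). The second call was lost without the same 7 mice as those of Nos3, with differences from -3.03 to -2.50. Npr2, the C-type natriuretic peptide receptor, was 39.1 ± 7.57 TPM in control and 49.9 ± 5.71 TPM in IF (log2 difference 0.36, adjusted p = 0.0188), and Furin, a protease that processes peptide precursors, rose by 0.46 with RU486 (adjusted p = 8.01e-05) and was -0.25 from IF in PBMC-hCG (adjusted p = 0.0325). Gucy2g, a membrane guanylyl cyclase, rose by 1.81 (adjusted p = 0.00701), with control replicate 2 at 6.82 TPM against 0.629 to 1.37 TPM in the others. The genes lower in IF were Corin, the protease that activates atrial natriuretic peptide (-1.46, adjusted p = 0.00242), and Gucy2e (-0.69, adjusted p = 0.0407), which had a mean of 0.258 TPM in control. The call of Npr2 was lost under 4 alternatives and that of Gucy2e under 8. That of Furin in PBMC-hCG versus IF was lost under 8. Npr2, Furin, Corin and Gucy2e are named after their values were seen.

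**Figure D4:**
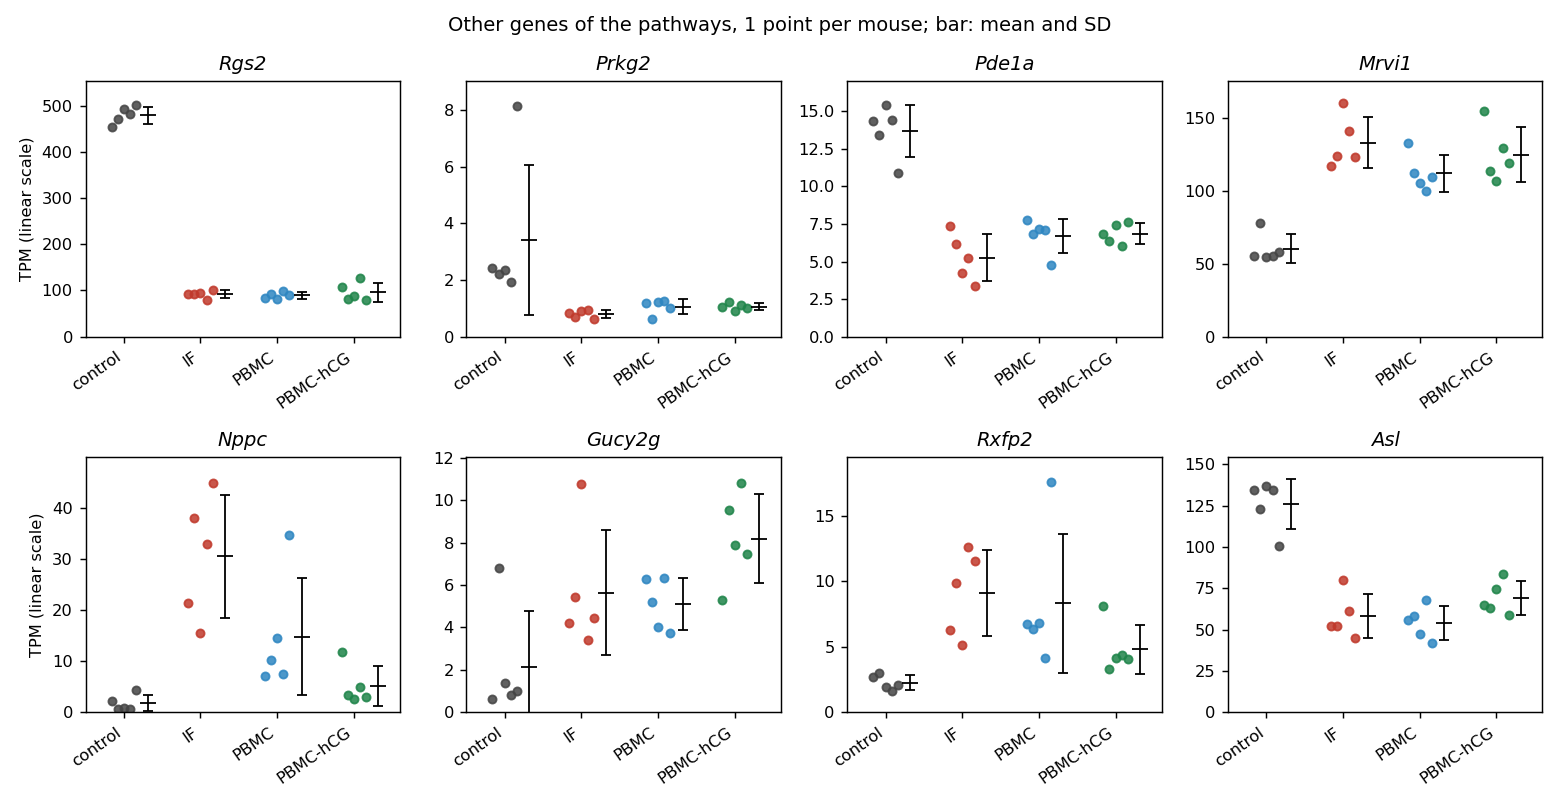
Level in TPM (linear axes from 0) of 8 other genes of the pathways by group, with 1 point per mouse and a bar for the mean and SD of 5 mice, cut at 0 where the SD exceeds the mean. Rgs2 stands at 453 to 501 TPM in control and 79.1 to 127 TPM in the 3 groups given RU486, and Nppc is highest in IF (15.5 to 44.9 TPM).

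The 24 genes that supply NO synthases with cofactor and substrate or regulate them, all tested, had 2 higher and 5 lower in IF than in control, against 13.4% and 8.53% of all genes (median log2 difference -0.07, against 0.02). Asl, argininosuccinate lyase of arginine synthesis, fell from 126 ± 15.0 TPM to 58.1 ± 13.4 TPM (SD, n = 5, log2 difference -1.13, adjusted p = 2.38e-05). Arg1, an arginase that consumes arginine, rose by 1.07 (adjusted p = 0.00199), and Ddah1, which degrades an endogenous inhibitor of NO synthases, fell by 0.78 (adjusted p = 0.0208, lost without control replicate 1, 3 or 4 or IF replicate 3). The related genes Arg2 and Ddah2 had higher levels and went the other way. Arg2 fell from 19.1 to 12.8 TPM (-0.55, adjusted p = 0.0286), where Arg1 had 1.12 and 2.45 TPM. Ddah2 rose from 111 to 135 TPM (0.28, adjusted p = 0.0176, lost under quantile normalization), where Ddah1 had 9.21 and 5.14 TPM. Spr and Qdpr were also lower. Arg2, Ddah2, Spr and Qdpr are named after their values were seen. In PBMC-hCG versus IF 2 were higher, the arginine transporter Slc7a2 (0.54, adjusted p = 0.0407) and Ddah2 (0.25, adjusted p = 0.0479), and 1 lower, the kinase Akt1 (-0.33, adjusted p = 0.0399), which phosphorylates the endothelial enzyme. The calls of Slc7a2, Ddah2 and Akt1 were lost under 8, 12 and 8 alternatives. These 3 of 24 were near the 13.6% called over all genes and are named after their values were seen.

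On the relaxin side, 3 of 8 ligand and receptor genes were tested beside Rxfp1. Rxfp2, the receptor of insulin-like peptide 3, rose from 2.27 ± 0.561 TPM in control to 9.11 ± 3.27 TPM in IF (log2 difference 1.91, SE 0.33, adjusted p = 0.000389). Insl6, a peptide of the relaxin family, differed by -0.999 on the log2 scale (adjusted p = 0.0309, lost under 8 alternatives) and was 1.02 higher in PBMC-hCG than in IF (adjusted p = 0.0440, also lost under 8). The cyclic AMP arm below Gs-coupled receptors had 24 of 24 genes tested, with 9 higher and 3 lower in IF, where 21.9% of all genes were called in either direction (median log2 difference 0.13, against 0.02). Those with the largest changes were the phosphodiesterases Pde8b (1.53, adjusted p = 0.000182), Pde7b (1.23, adjusted p = 1.09e-06), Pde4b (1.05, adjusted p = 0.00417) and Pde8a (0.67, adjusted p = 1.67e-06), and Prkar1b, a regulatory subunit of protein kinase A (0.82, adjusted p = 8.99e-07). In PBMC-hCG versus IF 2 were higher, the cyclase Adcy9 (0.43, adjusted p = 0.0279) and Pde7a (0.45, adjusted p = 0.0334), and 1 lower, Prkar1a (-0.37, adjusted p = 0.0353), named after their values were seen, again a count near the 13.6% of all genes. The calls of Adcy9, Pde7a and Prkar1a were lost under 7, 8 and 8 alternatives. No gene of the 5 lists was called by limma in PBMC versus IF or PBMC-hCG versus PBMC, where 9 and 14 of 79 had an unadjusted p under 0.05, beside 6.79% and 16.2% of all genes, and every list count in PBMC-hCG versus IF fell to 0 when a mouse such as IF replicate 5 was left out.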

How the data were processed

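The authors sequenced poly(A) RNA from 1 uterine horn per mouse (TruSeq Stranded mRNA), trimmed reads with Trimmomatic, aligned them to mm10 with HISAT2 and quantified genes with StringTie (versions not given in the sources used here). The deposited table holds TPM, scaled by the authors to transcript length and library sum (999989 to 999999 per library). All 20 columns were matched to samples by name, and 0 columns of other samples were found.

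The test ran on the 18706 genes with a TPM over 0 in each of 20 libraries, as log2(TPM + 0.1) by limma 3.58.1 (trended moderation, R 4.3.3) in 1 fit of 4 groups, 6 comparisons, with Benjamini-Hochberg adjustment over all genes tested in each and a threshold of 0.05. A fold change on this scale understates changes of low genes. The p-values rest on the spread between mice within groups, pooled over the 4 groups of 5 mice and moderated across genes. The study tested read counts, a test that TPM cannot enter. The fit was checked on simulated data in which genes varied independently of each other. That check cannot speak to calls lost when 1 mouse is left out.

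The genes, lists and tests were chosen with earlier results of these data known. Listed pathway genes were named when called, averaging 1 TPM or more and changed by 1.5-fold or more, at most 5 per list and comparison. Likeness was Pearson's r of log2 levels. Positions and promoter windows came from RefSeq GRCm38.p6. Marker lists covered smooth muscle, endothelium, pericytes, stroma, epithelium, myeloid cells, lymphocytes, adipose tissue, mesothelium, and ovary and oviduct. Alternatives were pseudocounts, the filter, scaling, robust moderation, pairwise fits, a replicate block, the study's criteria and each mouse left out. Python 3.11.15, pandas 2.3.3 and matplotlib 3.10.9 were also used.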

Additional observations from a re-analysis of the deposited data

Results flagged for a closer look

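Of 116 sets of 5 values (1 gene or ratio in 1 group), 14 held a mouse whose gap to the nearest other exceeded Dixon's 95% limit of 0.71 of the range, where chance gives about 1 in 20. Among the 10 genes, Nos3 reached 25.2 TPM in IF replicate 5 (others 17.7 to 19.0) and Npr1 reached 65.2 TPM in IF replicate 3 (others 45.3 to 48.9). The Npr1 to Npr3 ratio was 10.3 in control replicate 2 (others 5.63 to 6.68). The same control mouse, which had the adipose markers, had the highest Gucy2g, 6.82 TPM (others 0.629 to 1.37), and the highest Mrvi1, 77.9 TPM (others 54.8 to 58.0). PBMC replicate 5, the mouse lowest in Gucy1a1 in its group, was high for Rxfp2, 17.6 TPM (others 4.15 to 6.82), and for Nppc, 34.6 TPM (others 7.16 to 14.5). PBMC-hCG replicate 1 was high for Rxfp2, 8.11 TPM (others 3.28 to 4.41), Nppc, 11.9 TPM (others 2.65 to 4.86), and Pde10a, 10.5 TPM (others 5.59 to 6.35). IF replicate 3 was high for Prkar1b, 45.7 TPM (others 34.2 to 36.6), and Gucy2g, 10.7 TPM (others 3.39 to 5.43). Control replicate 5 had 8.15 TPM of Prkg2 (others 1.95 to 2.43), and control replicate 3 had a low Pde4b of 6.13 TPM (others 10.8 to 12.5).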

How the results depend on the processing

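With each mouse left out in turn, the number of the 10 genes called was 2 to 5 in IF versus control, 0 to 4 in PBMC-hCG versus IF, 2 to 4 in PBMC versus control, 4 to 5 in PBMC-hCG versus control, and 0 in PBMC versus IF and in PBMC-hCG versus PBMC. The low of 2 came without IF replicate 5, and the 4 in PBMC versus control without PBMC replicate 5. Over all genes, the fits without 1 mouse called 3323 to 5012 in IF versus control and 0 to 5061 in PBMC-hCG versus IF. They called 2959 to 4628 in PBMC versus control and 4756 to 7513 in PBMC-hCG versus control. In PBMC versus IF they called 0 to 2, and in PBMC-hCG versus PBMC 2 to 7. With only the compared pair of groups fitted, IF versus control gave 2 calls. That fit called 2473 of all genes, against 4104 in the fit of 4 groups. The criterion of a 2-fold change left 0 in each comparison. The labels do not say whether replicate numbers pair the mice. Over 30 same-numbered pairs, r of the deviations from group means lay between -0.247 and 0.457, with 8 above 0.1. The highest values were all between mice numbered 5: 0.457 for IF and PBMC, 0.396 for control and IF, and 0.272 for control and PBMC. Mice with different numbers were not set beside them, so these values cannot decide whether the mice were paired. With the replicate number as a block the counts were 4, 0, 4, 0, 3 and 4 in the order IF versus control, PBMC versus IF, PBMC-hCG versus IF, PBMC-hCG versus PBMC, PBMC versus control and PBMC-hCG versus control, with Npr3 the gene added in PBMC versus control (adjusted p = 0.0384). Over all genes the block gave 4153, 0, 3215, 2, 3638 and 6071 calls.

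Small uncalled log2 differences changed sign. Under median-of-ratios scaling they were -0.009475 for Gucy1b1 in IF versus control, -0.003316 for Pde5a in PBMC versus IF, -0.005694 for Npr1 and -0.0287 for Prkar1b in PBMC-hCG versus IF, and -0.002386 for Nos1 in PBMC-hCG versus PBMC. Under quantile normalization they were -0.0232 for Gucy1b1 in IF versus control, 0.0213 for Pde5a and 0.004288 for Npr2 in PBMC-hCG versus IF, and -0.0471 for Nos1 in PBMC-hCG versus PBMC. With a mouse left out, the ranges that crossed 0 were, in IF versus control, -0.006827 to 0.0422 for Gucy1b1, -0.13 to 0.16 for Npr3 and -0.002352 to 0.14 for Akt1. In PBMC versus IF they were -0.19 to 0.11 for Rxfp1, -0.0797 to 0.0863 for Pde5a and -0.11 to 0.0223 for Npr1. In PBMC-hCG versus IF they were -0.22 to 0.0771 for Rxfp1, -0.12 to 0.0546 for Prkg1, -0.10 to 0.0644 for Pde5a, -0.0175 to 0.087 for Prkar1b, -0.0575 to 0.11 for Rgs2 and -0.0621 to 0.0283 for Npr2. In PBMC-hCG versus PBMC they were -0.15 to 0.0857 for Rxfp1, -0.18 to 0.24 for Nos1 and -0.0644 to 0.007502 for Pde5a. In comparisons with control they were -0.16 to 0.064 for Gucy1a1 and -0.0122 to 0.13 for Prkg1 (PBMC) and -0.20 to 0.0764 for Nos2 (PBMC-hCG). The cause was not tested. TPM hides depth, so counting error of low genes such as Nos1 and Nos2 is unknown.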

Other observations

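The ligand genes Rln1, Nppa and Nppb were at 0 in some libraries and were not tested. Rln1, which encodes relaxin, was listed at 1.15, 0.172, 1.69, 1.60 and 0.757 TPM in the control mice, and at 0 in 2 of the IF and 3 of the PBMC mice, with a highest value of 0.704 TPM in the mice given RU486. Markers of ovary and oviduct summed to 22.6 to 30.4 TPM in control and to 8.96 to 28.2 TPM in those mice, and their part in the Rln1 values was not tested. Nppa, atrial natriuretic peptide, was listed at 0.711, 7.44, 0.110, 0.423 and 16.9 TPM in the control mice and at most 3.77 TPM in the others. Nppb, B-type natriuretic peptide, was listed at 3.73 TPM in control replicate 5 and at 0 in the other 19 libraries.

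Other cell type markers, in the order control, IF, PBMC and PBMC-hCG, summed to 4053 to 7522, 7348 to 9092, 7367 to 9301 and 7884 to 8997 TPM for stroma, 557 to 962, 850 to 1060.3, 917 to 1216 and 956 to 1250.4 TPM for epithelium, and 380.2 to 547, 469 to 533, 483 to 599 and 477 to 616 TPM for pericytes. Of 7 pericyte markers 4 were called higher and 1 lower in IF than in control, where 13.4% and 8.53% of all genes were. Against control 5 were higher and 0 lower in each PBMC group, where 19.5% (PBMC) and 31.8% (PBMC-hCG) of all genes were called. Rgs5 had the highest mean of these markers, 271 TPM, and a log2 difference of -0.38 in IF versus control. Of 7 epithelial markers 5 were called higher and 1 lower in IF than in control, beside the same shares of all genes, 13.4% and 8.53%. Mesothelial markers summed to 32.3 to 68.1, 34.8 to 52.4, 39.7 to 60.9 and 62.0 to 88.5 TPM, and 3 of 3 were called higher in PBMC-hCG than in IF, where 7.61% of all genes were.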
